A study of Mus musculus with 2 samples.

Results

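The genes described here are 43 mouse genes for integrins, laminins and the glycoproteins of the basement membrane, measured by RNA sequencing in whole embryos at embryonic day 10.5. They were chosen by name, with earlier results of these data known: 22 integrin subunits, 10 laminin chains and 11 other glycoproteins. All 43 had a locus among the 34624 loci of the data, where a locus is the set of Ensembl genes that the authors counted together. Of the 43 genes 7 lay in loci joined with another gene and 36 in loci of their own. The study holds 1 group of 2 replicates, both total RNA of the whole body from CBA/Ca×C57Bl/10 crosses without treatment, with age counted from the day of the mating plug. Whether each replicate holds a single embryo or a pool, and whether separate litters were used, is missing from the labels, so the spread between them may be partly technical. With 1 group there was no comparison between conditions. What the data allow is a level for every gene in each replicate and differences between genes, read against the spread between replicates.

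A basement membrane is the thin sheet of matrix under epithelia and endothelia and around muscle and nerve. Its laminin network is built from trimers of an alpha, a beta and a gamma chain, and nidogens and the proteoglycans perlecan and agrin join that network to collagen IV. Cells hold the sheet through integrins, each a pair of an alpha and a beta subunit, and through dystroglycan, while fibronectin, vitronectin, tenascin-C, Sparc and the fibulins belong to the wider matrix that such receptors meet.

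Levels are given in RPKM, reads scaled to transcript length in kilobases and to library size, always for replicate 1 and then replicate 2. Detected means that both replicates reached 1 RPKM. Differences between genes are on the log2(RPKM + 1) scale, with the mean and SD of the 2 replicates, and this scale understates differences of low genes. A pair of genes was called apart when its difference kept its sign in both replicates and had a mean beyond a limit of 2 SD of the replicate log2 ratio among protein-coding loci of the same level. No p-value is given for a pair: both genes were read in the same 2 libraries, and 2 paired differences allow no two-sided exact p below 0.5. In whole embryos, fewer cells of a type and less RNA per cell cannot be told apart.

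The libraries held 18318181 and 117522171 reads over the loci, so a locus of 1 to 2 RPKM rested on few reads, with medians of 18 and 106. The yolk sac endoderm and fetal liver markers stood apart between replicates: all 8 were lower in replicate 2, with a median log2 ratio of -2.04 and summed levels of 613 and 153 RPKM. Red cell markers, mainly embryonic globins, went the other way, with summed levels of 4214 and 11686 RPKM. The part of these cells in the members' values was not tested. The labelled whole body was checked against markers of its tissues. Those of endothelium (8 of 8) and of basal and simple epithelium (8 of 8) were detected, where 65.1% of protein-coding loci were. So were those of heart (6 of 6), neural tissue (6 of 6) and skeletal muscle (5 of 6). Of 4 trophoblast markers 1 was detected, Prl2c2, at 5.20 and 3.07 RPKM on 44 and 177 reads. Prl3d1 stayed under 1 RPKM, at 0.204 and 0.824 RPKM on 2 and 46 reads. For Tpbpa and Psg21 neither library held a read. Of 2 markers of decidua, a maternal tissue, Prl8a2 was detected, at 1.23 and 6.38 RPKM on 13 and 383 reads, and its part in the members' values was not tested.

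The length behind an RPKM value matters for every comparison between genes. Reads divided by RPKM and library size gave an implied length. Library size was itself fitted, as the value most often obtained in single-transcript loci when their length was taken without the 3′ UTR. That value was met by 1353 of 2505 loci in replicate 1 and 2331 of 3930 in replicate 2. Matches to that length are therefore partly built in. In single-transcript coding loci the implied length was compared with the transcript without its 3′ UTR. It was within 4 bases in 49.3% of 1636 loci in replicate 1 and 51.7% of 2336 in replicate 2. It matched the full transcript in 4 and 9. For 37 of the 43 genes the locus had several transcripts, and the implied length was a median 72.1% of the longest transcript without its 3′ UTR, here called the longest length, in both replicates. Over the 10435 detected loci with several transcripts and a length, that median was 80.8% in replicate 1 and 79.1% in replicate 2. Levels were therefore also computed over the longest length, the same in both libraries, an alternative chosen after seeing the data, and these are called longest-length levels below. Whether reads over 3′ UTRs were counted was not tested.

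Of the 43 genes, 35 were detected, made up of 16 of 22 integrin subunits, 8 of 10 laminin chains and 11 of 11 other glycoproteins. By comparison 49.4% of all loci and 65.1% of protein-coding loci were detected. The median level of all 43 members, detected or not, was 23.2 and 15.5 RPKM, against 8.38 and 5.52 over all coding loci. Over detected loci only, coding or not, the median was 21.6 and 15.7 RPKM. On the longest-length scale 35 were again detected, and they were the same 35 genes, beside 50.8% of loci with a length. Itga7 and Itgb7 were under 1 RPKM in both replicates. Itgam, Itgb2, Itgb4, Itgb6, Lama3 and Lamb3, 6 of the 43, were at 1 RPKM or more in replicate 1 and under it in replicate 2, a pattern shown by 5.45% of all loci. For each of these 6 the upper bound of the 95% Poisson interval in replicate 2 lay below 1 RPKM, between 0.555 for Lamb3 and 0.947 for Itgb4. In replicate 1 the intervals of Itgb2 (0.957 to 1.80 RPKM) and Lamb3 (0.800 to 1.40 RPKM) included 1 RPKM, and the longest-length level of Itgam was under 1 in both replicates (0.582 and 0.358). Such intervals cover counting error only.

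**Figure D1:**
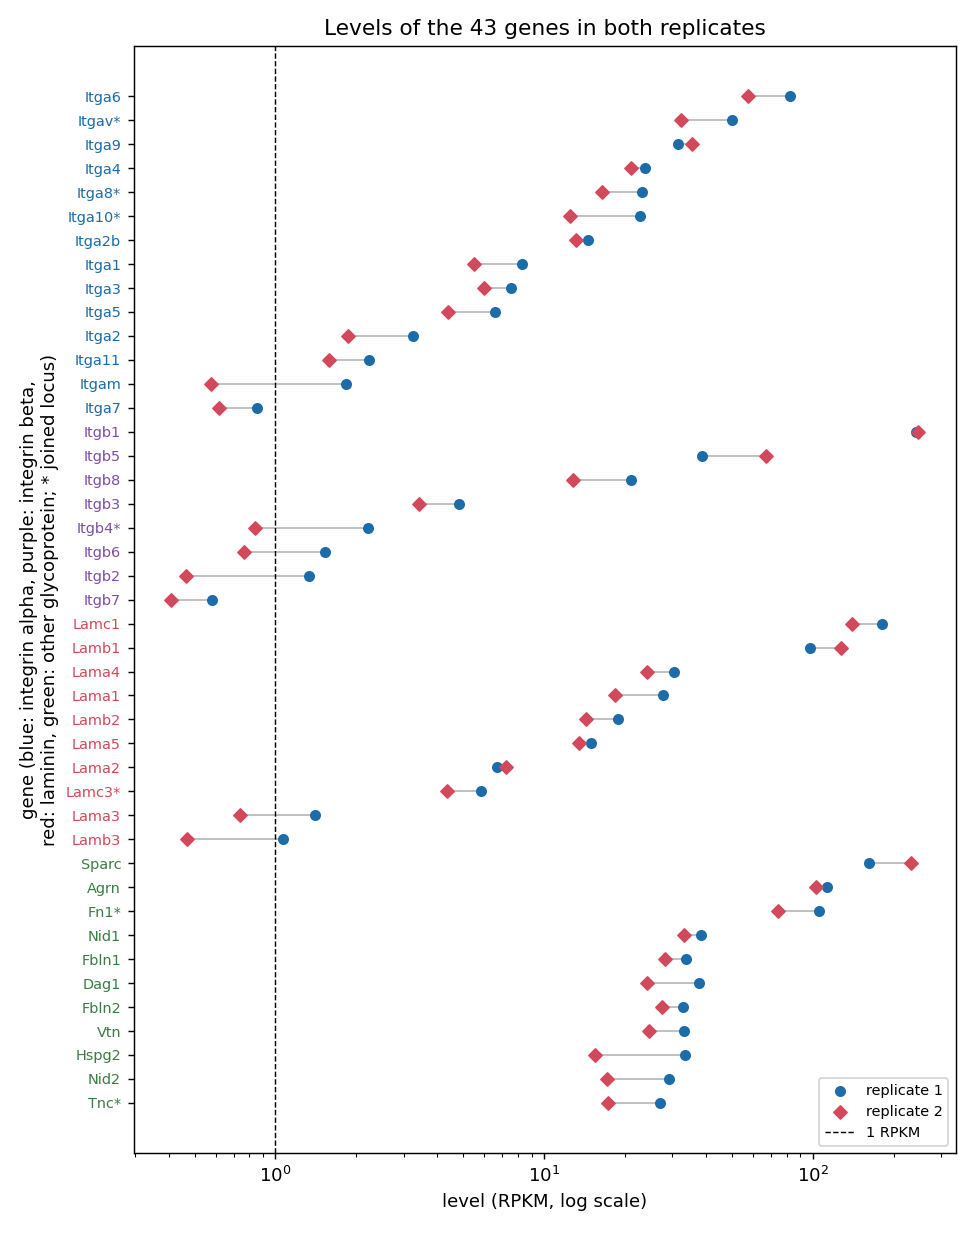
Level of each of the 43 genes in RPKM on a log axis, with replicate 1 as circles and replicate 2 as diamonds, ordered by mean level within each class, and the dashed line at 1 RPKM. Itgb1 is highest at 243 and 247 RPKM, Itgb7 is lowest at 0.581 and 0.409, and all 11 glycoproteins in green lie to the right of the line.

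To show what lies before the start of genes at different levels, the 250 bases before the RefSeq transcription start (GRCm38.p6) are printed for 5 of them, which were picked after their values were seen. Itgb1 (ENSMUSG00000025809, chr8:128685404-128685653, + strand) had the highest mean RPKM of the 43, and Agrn (ENSMUSG00000041936, chr4:156197489-156197738, - strand) had the most GC boxes. Sparc (ENSMUSG00000018593, chr11:55420081-55420330, - strand) had the second highest mean RPKM and no GC box. Itga2b (ENSMUSG00000034664, chr11:102469884-102470133, - strand) and Itgam (ENSMUSG00000030786, chr7:128062390-128062639, + strand) encode the platelet and the leukocyte alpha subunit. Capitals mark the GC box GGGCGG, the core of a site for Sp-family factors, or its complement CCGCCC; overlapping matches are all counted.
Itgb1: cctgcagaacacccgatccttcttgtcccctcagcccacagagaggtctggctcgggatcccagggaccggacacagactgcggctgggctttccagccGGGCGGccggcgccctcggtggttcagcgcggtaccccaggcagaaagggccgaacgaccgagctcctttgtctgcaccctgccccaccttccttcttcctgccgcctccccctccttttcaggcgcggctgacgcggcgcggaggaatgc
Agrn: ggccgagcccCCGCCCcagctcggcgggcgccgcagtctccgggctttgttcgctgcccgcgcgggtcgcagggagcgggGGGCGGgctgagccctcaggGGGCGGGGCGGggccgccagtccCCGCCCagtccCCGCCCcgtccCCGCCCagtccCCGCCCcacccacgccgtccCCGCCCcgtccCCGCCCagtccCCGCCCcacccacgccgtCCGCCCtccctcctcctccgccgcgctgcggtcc
Sparc: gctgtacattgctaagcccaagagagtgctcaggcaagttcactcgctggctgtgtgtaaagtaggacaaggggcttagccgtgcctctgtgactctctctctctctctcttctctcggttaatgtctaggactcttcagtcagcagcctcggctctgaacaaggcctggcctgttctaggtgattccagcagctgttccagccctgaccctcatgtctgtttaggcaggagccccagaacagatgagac
Itga2b: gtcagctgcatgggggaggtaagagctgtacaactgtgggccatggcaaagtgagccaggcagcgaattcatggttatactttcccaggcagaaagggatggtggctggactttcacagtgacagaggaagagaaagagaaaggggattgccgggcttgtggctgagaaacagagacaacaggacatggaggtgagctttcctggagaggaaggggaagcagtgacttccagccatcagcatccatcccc
Itgam: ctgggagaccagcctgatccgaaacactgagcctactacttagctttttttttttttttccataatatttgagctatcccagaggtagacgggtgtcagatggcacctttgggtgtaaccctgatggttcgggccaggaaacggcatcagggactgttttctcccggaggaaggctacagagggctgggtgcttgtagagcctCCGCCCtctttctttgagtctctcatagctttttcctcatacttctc

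A promoter was matched by symbol for 31 of the 43 genes. Agrn held 12 GC boxes in 83.6% G and C, Itgb1 held 1, Itgam held 1, and Sparc and Itga2b held none. Over the 31 genes, 14 held at least 1 GC box on either strand, where 32.9% of 27025 RefSeq promoters did. The TATA motif TATAAA, searched on both strands, was in 2 of the 31 (Tnc and Vtn), against 13.0% of all promoters. The ratio of observed to expected CpG, a measure of how far a stretch keeps its CpG pairs, had a median of 0.56 over the 31 genes and 0.38 over all promoters. It was 0.6 or more in 12 of the 31, against 34.5% of all. Level and CpG ratio did not run in 1 order: Sparc, at 162 and 232 RPKM, had a ratio of 0.22, while Itgb6, at 1.54 and 0.762 RPKM, had 0.655. A match to these letters is a description and says nothing of binding.

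**Figure D2:**
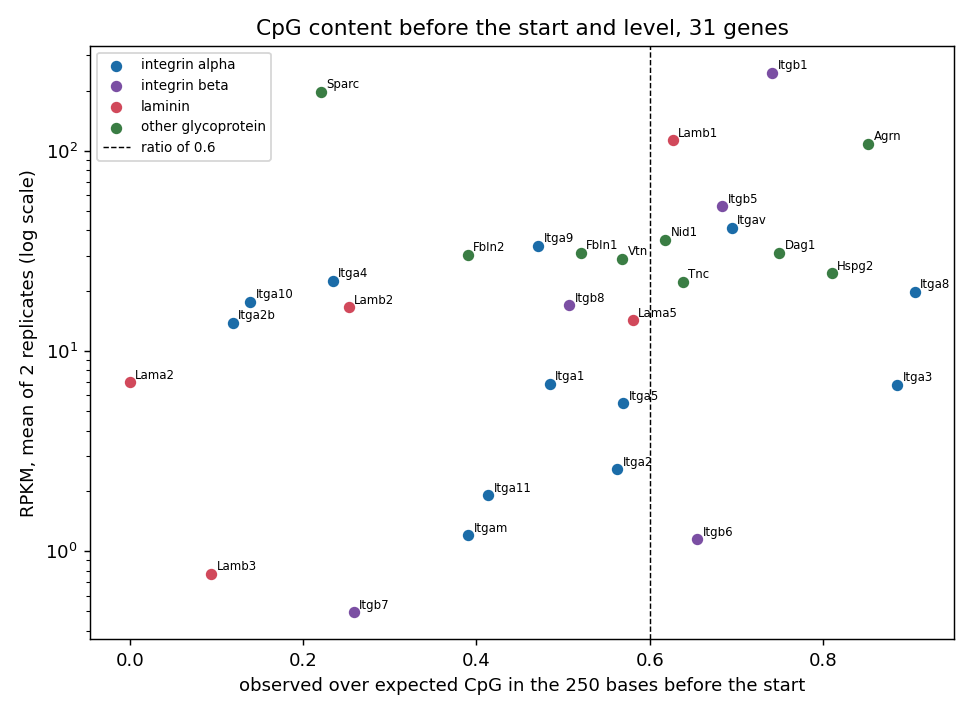
Mean RPKM of both replicates on a log axis against the ratio of observed to expected CpG in the 250 bases before the start, for the 31 genes with a RefSeq promoter, coloured by class, with the dashed line at 0.6. Of the points, 12 lie at 0.6 or more, from Itgb6 near the bottom to Itgb1 at the top, and Sparc lies high on the left.

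Among the collagen-binding alpha subunits, Itga1 led Itga2 and both were low. Itga1, a collagen receptor of smooth muscle and other mesenchyme, was at 8.26 and 5.48 RPKM. Itga2, the collagen receptor known from platelets and epithelia, was at 3.26 and 1.87 RPKM, and neither replicate of Itga2 reached the lower replicate of Itga1. The difference was 1.15 ± 0.04 (SD, n = 2; limit 0.84), and its longest-length value was nearly the same at 1.16. The call was lost when the spread was taken over all loci in place of coding loci. Itga11, a collagen receptor of mesenchymal cells, was at 2.23 and 1.58 RPKM. Itga10, the fourth collagen-binding subunit, lay in a joined locus, and its level is not described here. Reads of a joined locus cannot be assigned to 1 of its genes, so the values of the joined loci named below are statements on the locus.

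Of the laminin-binding alpha subunits, Itga6 stood far above Itga3 and Itga7. Itga6, the partner of Itgb1 or Itgb4 in many epithelia, endothelia and stem cells, was at 82.4 and 57.3 RPKM, the highest of all 14 alpha subunits. It held 29.6% and 27.4% of the summed RPKM of the alpha subunits, and 36.9% and 35.4% on the longest-length scale. Itga3, a laminin receptor of epithelia and kidney, was at 7.52 and 6.0 RPKM. Itga6 exceeded it by 3.17 ± 0.17 (SD, n = 2; limit 0.85), which is 10.96-fold and 9.55-fold in RPKM. Itga7, the laminin receptor of muscle, was at 0.854 and 0.619 RPKM on 42 and 173 reads. Its interval of counting error in replicate 1, 0.615 to 1.15 RPKM, included the 1 RPKM line, while that in replicate 2, 0.530 to 0.718, did not.

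The RGD-binding alpha subunits recognise the Arg-Gly-Asp motif of fibronectin, vitronectin and related ligands. Itgav, which pairs with several beta subunits, was at 49.99 and 32.4 RPKM in a locus joined with the predicted gene Gm13684. Itga8, a receptor of kidney and other mesenchyme, was at 23.2 and 16.4 RPKM in a locus joined with E030013I19Rik. Itga5, the classical fibronectin receptor subunit, was at 6.54 and 4.39 RPKM and was the lowest of the 3 in both replicates. Itgav exceeded Itga5 7.64-fold and 7.38-fold, with Itga5 minus Itgav at -2.69 ± 0.09 (SD, n = 2; limit 0.84). On the longest-length scale that difference was smaller, at -1.78. Itgav was above Itga8 by 1.01 ± 0.10 (SD, n = 2; limit 0.90), close to the limit, and this call was lost with a pseudocount of 0.1 (1.04) and with the spread taken over all loci (1.01).

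Itga4 and Itga9 form a small subfamily that binds fibronectin variants, tenascin-C and the vascular receptor Vcam1. Itga4 was at 23.8 and 21.1 RPKM. Itga9 was at 31.5 and 35.6 RPKM, above both values of Itga4. Their difference of -0.56 ± 0.24 (SD, n = 2) stayed within the limit of 0.83, and on the longest-length scale it turned to 0.07, with levels of 17.7 and 15.2 for Itga4 and 16.6 and 14.6 for Itga9. With 1 common length per locus it was -0.72, beyond the limit, so the order of these 2 genes depended on the length used.

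Itga2b and Itgam mark the megakaryocyte and platelet lineage and the myeloid cells respectively. Itga2b, the alpha subunit of the platelet fibrinogen receptor and a marker of early blood progenitors, was at 14.6 and 13.1 RPKM. Itgam, the CD11b chain of myeloid cells, was at 1.83 and 0.573 RPKM on 30 and 105 reads. Itga2b exceeded it by 2.82 ± 0.49 (SD, n = 2; limit 0.78), or by 1.93 on the longest-length scale. The implied length of Itga2b was only 34.6% and 31.8% of its longest length, and its longest-length level was 5.06 and 4.18. Of the platelet lineage markers 5 of 9 were detected, where 65.1% of protein-coding loci were. Among them was the platelet chemokine Pf4 at 27.9 and 26.6 RPKM, and the 9 markers had summed levels of 71.6 and 54.5 RPKM. Of the leukocyte markers 7 of 10 were detected, with summed levels of 36.3 and 26.7 RPKM, and Elane, a neutrophil protease, was read by 2 reads in replicate 1 and 0 in replicate 2. The part of these cell types in the levels of Itga2b and Itgam was not tested.

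Itgb1 dominated the beta subunits. This common partner of collagen, laminin and fibronectin receptors was at 243 and 247 RPKM, the highest of all 43 genes. It held 77.6% and 74.3% of the summed RPKM of the 8 beta subunits, and 75.7% and 83.1% on the longest-length scale. It exceeded Itga6, the highest alpha subunit, 2.95-fold and 4.31-fold, with a difference of 1.82 ± 0.38 (SD, n = 2; limit 1.17). Against its fibronectin-receptor partner Itga5 it was 37.2-fold and 56.3-fold higher (5.27 ± 0.36, SD, n = 2), and against Itgav 4.86-fold and 7.62-fold (2.58 ± 0.45, SD, n = 2), the latter difference being 3.31 on the longest-length scale. Itgb1 was above Itgb5, the next beta subunit, by 2.25 ± 0.53 (SD, n = 2; limit 1.17), or by 2.99 on the longest-length scale. Taking the spread over all loci in place of coding loci ended the calls of Itgb1 above Itga6 and above Itgb5.

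The partners of Itgav ranged widely. Itgb5, a vitronectin receptor subunit, was at 38.7 and 66.8 RPKM, well apart between replicates. Its implied length was 70.8% of the longest length in replicate 1 and 37.7% in replicate 2, and its longest-length level was 27.4 and 25.2. Itgb8, known for activating latent TGF-beta in brain and vessels, was at 21.1 and 12.8 RPKM. The implied length of Itgb8 was 142.6% and 140.3% of its longest length, so its longest-length level was above its RPKM, at 30.02 and 17.9. Itgb3, shared by platelets and endothelium, was at 4.84 and 3.42 RPKM, below Itgb5 by 3.35 ± 0.83 (SD, n = 2; limit 0.84). Itgb6, an epithelial subunit, was at 1.54 and 0.762 RPKM, below Itgb8 by 3.04 ± 0.11 (SD, n = 2; limit 0.90). Itgb8 was 13.7-fold and 16.8-fold higher in RPKM, and 28.9-fold and 29.7-fold higher on the longest-length scale. In both replicates the order was therefore Itgb5, Itgb8, Itgb3 and Itgb6, and on the longest-length scale Itgb8 was above Itgb5 in replicate 1, at 30.02 against 27.4, and below it in replicate 2, at 17.9 against 25.2.

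Itgb4, Itgb2 and Itgb7 were each under 1 RPKM in at least 1 replicate. Itgb4, which pairs with Itga6 in the hemidesmosomes of stratified epithelia, was at 2.21 and 0.841 RPKM in a locus joined with an unnamed Ensembl gene. Itga6 exceeded it by 4.84 ± 0.20 (SD, n = 2; limit 0.85), 37.2-fold and 68.1-fold in RPKM and 58.2-fold and 78.6-fold on the longest-length scale. The summed level of the 8 basal and simple epithelium markers in the same libraries was 138 and 100.4 RPKM. The simple epithelium keratin Krt18, the highest, made up 53.4 and 31.9 RPKM of that sum, and Krt8 was at 14.3 and 9.94 RPKM. Epcam was at 15.7 and 22.5, Cdh1 at 11.8 and 7.12 and the joined locus of Grhl2 at 20.4 and 13.8 RPKM. The basal markers were lower, with Krt5 at 6.05 and 5.41, Krt14 at 5.48 and 3.41 and Trp63 at 10.9 and 6.25 RPKM, though Trp63 was close to Cdh1. Itgb2, the beta subunit of leukocyte integrins, was at 1.33 and 0.464 RPKM, and its difference from its partner Itgam was within the limit (-0.19 ± 0.12, SD, n = 2; limit 0.78) and was 0.34 on the longest-length scale. Itgb7, a lymphocyte subunit that pairs with Itga4, was at 0.581 and 0.409 RPKM on 20 and 80 reads, with Itga4 41.0-fold and 51.5-fold higher. Itgb3 was below its platelet partner Itga2b by 1.55 ± 0.18 (SD, n = 2; limit 0.84) in RPKM. On the longest-length scale Itgb3 minus Itga2b came to -0.79, beyond the limit of 0.70 there.

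Of the 5 laminin alpha chains, Lama4 and Lama1 were highest and Lama3 was lowest. Lama4, the chain of vascular and mesenchymal basement membranes, was at 30.5 and 24.1 RPKM. Lama1, the chain of early embryonic basement membranes, was at 27.6 and 18.4 RPKM. They held 37.5% and 37.7%, and 34.04% and 28.8%, of the summed alpha chain RPKM. Lama5, which comes to replace Lama1 in many epithelia as organs form, was at 15.0 and 13.4 RPKM. The difference between Lama1 and Lama5 was 0.63 ± 0.29 (SD, n = 2), within the limit of 0.72, and was beyond it without replicate 2 (0.84). That reading depends on length: the implied length of Lama5 was 49.8% and 33.2% of its longest length, its longest-length level was 7.47 and 4.46, and Lama1 was then 3.70-fold and 4.12-fold higher (1.79), beyond the limit. Lama1 has a single transcript, and its level was the same on both scales.

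Lama2, the muscle and Schwann cell chain, was at 6.70 and 7.22 RPKM. It was below Lama4 by 1.82 ± 0.30 (SD, n = 2; limit 0.84) and below Lama1 by 1.57 ± 0.47 (SD, n = 2; limit 0.84). Lama3, the chain of epidermal laminin, was at 1.40 and 0.740 RPKM on 141 and 576 reads, below Lama5 by 2.89 ± 0.22 (SD, n = 2; limit 0.78). Lama5 was 10.7-fold and 18.2-fold higher in RPKM, and 7.40-fold and 6.15-fold higher on the longest-length scale. Both replicates of Lama3 lay below every value of the other 4 alpha chains.

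The beta and gamma chains were each led by 1 gene. Lamb1, the beta chain of most embryonic laminins, was at 97.7 and 128 RPKM and held 83.1% and 89.6% of the beta chain sum. Lamb2, the beta chain of synapse, kidney and vessel laminins, was at 18.8 and 14.3 RPKM. Lamb1 exceeded it by 2.70 ± 0.53 (SD, n = 2; limit 0.90), or by 1.71 on the longest-length scale. Lamb3, the epidermal partner of Lama3, was at 1.07 and 0.467 RPKM on 52 and 129 reads, 17.6-fold and 30.6-fold below Lamb2. Of the gamma chains, Lamc1, present in most laminins, was at 181 and 140 RPKM and held 96.9% and 97.0% of the gamma sum. Lamc3, read in a locus joined with Gm13441, was at 5.81 and 4.36 RPKM, and Lamc1 exceeded it by 4.73 ± 0.02 (SD, n = 2; limit 0.84). That was 31.2-fold and 32.1-fold in RPKM but 10.8-fold and 14.5-fold on the longest-length scale.

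Whether Lamb1 or Lamc1 was the higher could not be read from these values. In RPKM Lamb1 minus Lamc1 was -0.51 ± 0.53 (SD, n = 2; limit 0.76), and on the longest-length scale it was 0.37, also within the limit. Without replicate 2 the RPKM difference was -0.89 and beyond the limit. The implied length of Lamc1 was 26.8% and 26.9% of its longest length, and its longest-length level was 48.6 and 37.6, while that of Lamb1 was 59.4 and 52.2. Both were above each alpha chain in both replicates on either scale. Lama1 was below Lamb1 by 2.26 ± 0.67 (SD, n = 2; limit 0.76) in RPKM, and Lama1 minus Lamb1 came to -1.27 on the longest-length scale. The sum of all 5 alpha chains was 81.2 and 63.9 RPKM, against 118 and 142 for the beta chains and 187 and 144 for the gamma chains. On the longest-length scale the sums were 69.9 and 51.9 for alpha, 79.2 and 67.0 for beta and 53.1 and 40.2 for gamma, so the order of the 3 classes was not the same on the 2 scales.

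**Figure D3:**
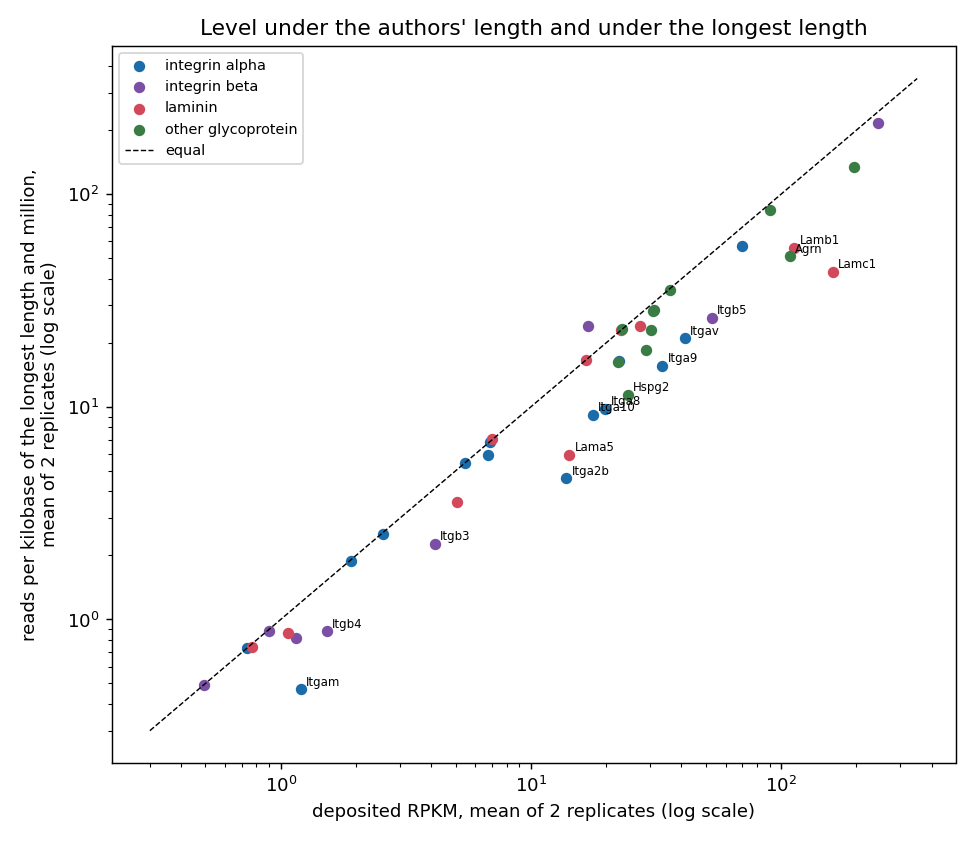
Mean level of the 43 genes over the longest transcript without its 3′ UTR against the mean deposited RPKM, both on log axes, coloured by class, with the dashed line where they are equal and the genes farthest from it named. Lamc1 lies well below the line at 48.6 and 37.6 against 181 and 140 RPKM, as do Itga2b and Lama5, while genes such as Nid1 and Lama1 lie on it.

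Nidogens link the laminin network to collagen IV, and both were well expressed. Nid1 was at 38.4 and 33.3 RPKM. Nid2 was at 29.3 and 17.1 RPKM, lower than Nid1 in both replicates. The difference of 0.65 ± 0.38 (SD, n = 2) stayed within the limit of 0.83, and without replicate 1 it was 0.92 and beyond it. Both genes have a single transcript, and the longest-length difference was 0.63.

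The heparan sulphate proteoglycans were unequal. Agrn, which encodes agrin, the organiser of the neuromuscular synapse that is also found in many basement membranes, was at 113 and 103 RPKM. Hspg2, which encodes perlecan, was at 33.4 and 15.5 RPKM. Agrn exceeded it 3.40-fold and 6.66-fold, with Hspg2 minus Agrn at -2.20 ± 0.65 (SD, n = 2; limit 0.76) in RPKM and -2.14 on the longest-length scale. Dag1, which encodes both subunits of the laminin receptor dystroglycan, was at 37.6 and 24.2 RPKM. Dag1 minus Itgb1 was -2.98 ± 0.45 (SD, n = 2; limit 1.17), so the integrin subunit was 6.46-fold and 10.2-fold the higher of these 2 laminin receptor genes.

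Fn1, Vtn and Tnc encode ligands of RGD-binding integrins. Fn1, which encodes fibronectin, was at 106 and 74.2 RPKM in a locus joined with Apol7d. Vtn, the vitronectin gene known for its expression in liver, was at 33.1 and 24.6 RPKM, and Tnc, the gene of tenascin-C, was at 27.1 and 17.4 RPKM in a locus joined with 8030451A03Rik. Fn1 exceeded Vtn by 1.60 ± 0.07 and Tnc by 1.98 ± 0.08 (SD, n = 2; limit 0.76 for both). Fibronectin and its receptor subunit Itga5 lay 3.81 ± 0.01 apart (SD, n = 2; limit 0.84), with Fn1 16.2-fold and 16.9-fold the higher. The replicate log2 ratio of Vtn was -0.41. The 8 yolk sac endoderm and fetal liver markers had a median of -2.04 and ranged from -0.98 (Amn) to -3.69 (Cubn). The part of these tissues in the level of Vtn was not tested.

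Sparc, a collagen-binding glycoprotein of parietal endoderm, bone and vessels, was at 162 and 232 RPKM, the highest of the 11 other glycoproteins in both replicates. It exceeded Nid1 by 2.40 ± 0.51 (SD, n = 2; limit 1.17). Fbln1 and Fbln2 encode fibulins, which bind laminin, nidogen and fibronectin. Fbln1 was at 33.9 and 28.1 RPKM and Fbln2 at 32.8 and 27.6 RPKM. Their difference of 0.04 ± 0.01 (SD, n = 2; limit 0.67) was the smallest of the 36 pairs compared in RPKM, and the longest-length difference was 0.30.

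Over all 36 pairs, 30 were beyond the limit and 6 were within it, and in none did the sign turn between replicates. The 30 include Itga10 and Itga11, a pair whose values are not described here. The 6 within it were Itga4 and Itga9, Itgb2 and Itgam, Lama1 and Lama5, Lamb1 and Lamc1, Nid1 and Nid2, and Fbln1 and Fbln2. A pair within the limit is not shown to be equal.

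**Figure D4:**
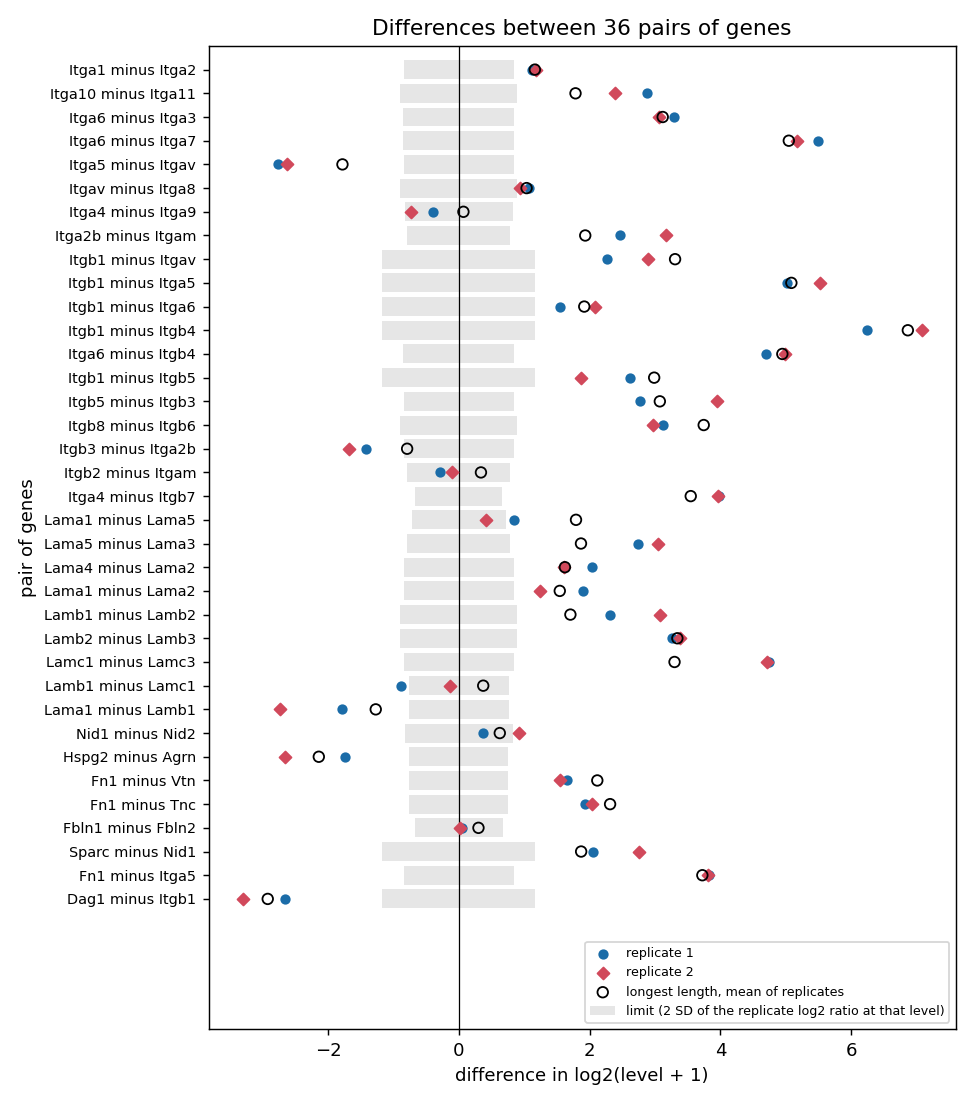
Difference in log2(level + 1) between the genes of 36 pairs, with replicate 1 as circles, replicate 2 as diamonds, the longest-length mean as open circles and the limit of each pair in RPKM as a grey bar. In 30 pairs the mean of the filled points lies outside the bar, and in Itga4 minus Itga9, Itgb2 minus Itgam and Lamb1 minus Lamc1 the open circle lies on the other side of 0 from them.

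Between the replicates the genes moved much as other loci did. Of the 35 detected genes 29 were lower in replicate 2, where 78.3% of all detected loci were lower, and the median log2 ratio was -0.37 for the members and -0.36 for detected loci. Among these 35 only Hspg2 differed by 2-fold or more on the log2(RPKM + 1) scale (-1.06), where 9.86% of detected loci did. In plain RPKM the undetected genes Itgam, Itgb2, Itgb4, Itgb6 and Lamb3 were also more than 2-fold lower in replicate 2. The implied length of Hspg2 was 45.1% of its longest length in replicate 1 and 49.5% in replicate 2. With 1 common length per locus its ratio was -0.93, and no gene reached 2-fold on the log2(level + 1) scale. The genes higher in replicate 2 were 6 of the 43: Itgb5 (0.77), Sparc (0.52), Lamb1 (0.38), Itga9 (0.17), Lama2 (0.09) and Itgb1 (0.02). With 1 common length Itgb5 came to -0.12, Lamb1 to -0.18 and Itga9 to -0.19, whereas Sparc remained at 0.57. For Itga3 and Lama5 a common length moved the ratio the other way, from -0.28 to -0.95 and from -0.15 to -0.70.

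**Figure D5:**
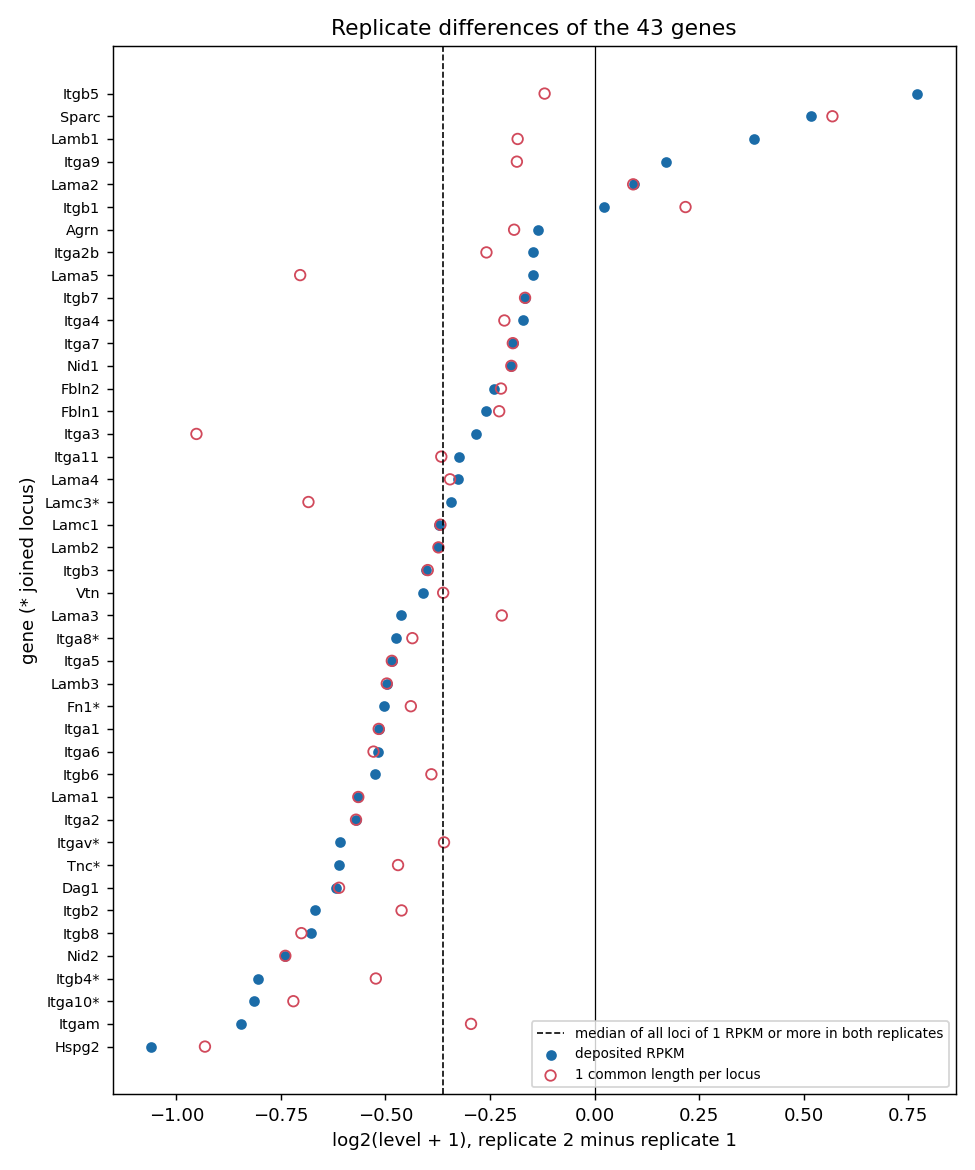
Replicate 2 minus replicate 1 in log2(level + 1) for each of the 43 genes, from deposited RPKM as filled circles and with 1 common length per locus as open circles, with the dashed line at the median of detected loci (-0.36). Itgb5 moves from 0.77 to -0.12, Sparc stays to the right of 0, and Hspg2 is lowest at -1.06.

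The machinery that joins these receptors to the cell was read from lists of other genes. The counts of these lists stand beside 65.1% of protein-coding loci detected. Of 24 genes of integrin adhesion 21 were detected. The highest was the actin crosslinker Flna, at 516 and 647 RPKM and at 183 and 178 on the longest-length scale. Tln1, the talin that activates integrins, was at 249 and 275 RPKM in a locus joined with Creb3, and its longest-length level was 48.4 and 42.6. Ilk, the integrin-linked pseudokinase, was at 249 and 222 RPKM in a locus joined with Rrp8 and Taf10, with a longest-length level of 138 and 104. The lowest by mean RPKM was Parvg, the leukocyte parvin, at 0.934 and 0.331 RPKM. Of 20 genes of the dystroglycan complex and its glycosylation 19 were detected. Utrn, the dystrophin relative utrophin, was highest at 57.7 and 48.2 RPKM, and Sgca, the muscle sarcoglycan alpha, was lowest at 0.368 and 0.273 RPKM.

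All 14 loci of other basement membrane genes were detected, where 65.1% of protein-coding loci were. Col18a1, which encodes collagen XVIII, was at 96.8 and 157 RPKM, Pxdn, the peroxidase that crosslinks collagen IV, at 89.3 and 67.3 RPKM, and the joined locus of Col4a1 and Col4a2 at 69.6 and 62.8 RPKM. On the longest-length scale the order differed, with Col18a1 at 30.5 and 36.9, Pxdn at 68.2 and 49.4 and the Col4a1 and Col4a2 locus at 65.5 and 60.1. The lowest by mean RPKM was the laminin-related netrin Ntn4, at 6.27 and 4.28 RPKM, though Egflam was lower in replicate 1 and Tinagl1 in replicate 2. Of 20 other matrix ligands 15 were detected, not far from the share of coding loci. They were led by the proteoglycan gene Vcan at 272 and 325 RPKM, with Tnxb at 0.0243 and 0.0267 RPKM at the other end. Of 14 other matrix receptors 10 were detected, also not far from that share, led by the syndecan gene Sdc1 at 58.1 and 50.7 RPKM. The 4 that were not detected were the leukocyte integrin subunits Itgad, Itgae, Itgal and Itgax, singled out after their values were seen. Of 12 genes of matrix turnover 11 were detected, led by the collagen chaperone gene Serpinh1 at 289 and 370 RPKM, and Mmp9 was lowest at 0.510 and 0.521 RPKM.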

How the data were processed

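Total RNA of whole embryos was extracted with TRI reagent and sequenced from standard Illumina libraries, per the labels' protocols. TopHat and the mouse build mm9 were named without a version, per the submitters' processing notes. For the read counter, read filters and use of strand, the sources used here give nothing, so reads of antisense genes may be mixed. The authors deposited 2 files of 34676 rows with RPKM and raw counts, per the file headers; rows with the same gene identifiers were summed to 34624 loci, of which 2473 (7.14%) joined several genes. RPKM was the planned unit and stayed the main one; the deposited counts gave depth, Poisson intervals and the length behind each RPKM. The library sizes these imply were 13711737 and 77921398 reads. Both are smaller than the 18318181 and 117522171 reads over the loci, and the reason was not tested. Implied lengths, longest-length levels and common-length ratios all rest on these fitted sizes.

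The members and lists were chosen with earlier results of these data known. All 43 genes are named, and of each other list genes among the 3 highest and the lowest by mean RPKM; some that this rule allows are not named, and 1 item is not reported here. Symbols were matched through a table of names, and GENCODE M21 served for gene types and transcript lengths only, being later than the authors' build. The limit for pairs used 20 level groups of coding loci with a mean of 0.3 RPKM or more. The rule was tested on simulated data with 1 spread at every level, no shift between libraries and no error of length. That test cannot show how the rule fares where these are present. With 1 group, conditions were not tested and count models were not used. Alternatives changed the minimum, pseudocount, spread, scaling and length, kept single-gene loci, or left out a replicate. Python 3.11.15, pandas 2.3.3, numpy 2.4.6, scipy 1.17.1 and matplotlib 3.10.9 were used.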

Additional observations from a re-analysis of the deposited data

How the results depend on the processing

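The number of the 43 genes detected was 43 at a minimum of 0.3 RPKM and 33 at 3 RPKM, 29 of 36 in single-gene loci, and 35 to 41 with 1 replicate left out. Over the alternatives, 27 of the 36 pairs kept their call and direction and 9 changed, and the number beyond the limit ranged from 26 to 32 of 36, with 20 of 26 in single-gene loci. Only the longest length, an alternative chosen after seeing the data, turned a sign: Itga4 minus Itga9 became 0.0714, Itgb2 minus Itgam 0.34 and Lamb1 minus Lamc1 0.37, all within the limit before and after. On the log2(level + 1) scale, the number of detected genes 2-fold apart between replicates was 0 with a common length and 0 with the longest length. It was 1 with the deposited RPKM. Both alternatives replace the authors' lengths. Of the other matrix receptors, 5 of 9 were detected in single-gene loci, where fewer loci are counted. The median log2 ratio of the genes was -0.01 once the replicates were rescaled to the same median. Low genes rest on fewer reads in replicate 1, yet 41 of the 43 genes reached 1 RPKM there and 35 in replicate 2. Whether the replicates are separate embryos is not stated. No paired analysis was possible because the study has 1 group only.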
